A study of Homo sapiens with 2 samples.

Results

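Imprinted genes are expressed from 1 parental allele only, the other being silenced by marks laid down in the germ line, chiefly DNA methylation at control regions. They lie in clusters that often pair a maternally expressed non-coding RNA with paternally expressed protein genes, and many of them act on growth. The 10 imprinted genes described here are MEG3, DLK1, H19, PEG3, PEG10, SNRPN, NDN, MEST, GRB10 and PLAGL1. Their probes were taken by gene name from the array annotation, without use of measured values, and made 17 of the 41000 transcript probes. The genes themselves had been chosen with earlier results of these data known. They are 10 of 30982 gene names on the arrays. Each of the 17 was printed once per array, and 6 of the 10 genes had a single probe. A probe reads both parental alleles together, so the arrays give levels of RNA and not its allelic origin.

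The samples were Y79 cells, an established human retinoblastoma line grown in suspension. One array carried RNA of cells not treated with siRNA, and the other RNA of cells collected 48 h after siRNA against Ep-CAM, an epithelial adhesion molecule whose gene is listed as TACSTD1. According to the study, both cultures had also received azacytidine, a DNA demethylating agent, which the sample labels do not give. No array of cells given a scrambled siRNA was analysed here, so the transfection and the loss of Ep-CAM cannot be told apart. Since each condition had 1 array, the ratios below have no replicates behind them and carry no p-value. The single Ep-CAM probe gave a signal of 15.6 in untreated cells and 11.96 after siRNA, too dim on both arrays to count as well above background, so the target did not check the siRNA label.

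Signals are background-subtracted spot intensities in arbitrary units. Their errors are those of the scanner software, within 1 spot. For a ratio each array was divided by its median over transcript probes, 48.9 in untreated cells and 50.0 after siRNA. The log2 ratio is siRNA-treated over untreated, and 2-fold is a log2 ratio of 1 in either direction. Repeated spots of the same probe differed in log2 ratio with a median SD of 0.14 (193 probes), or 0.18 among the 123 of them with signals between 18 and 210, the range of most member probes. This spread is technical and leaves out the variation between cultures. The reference transcript GAPDH had a log2 ratio of -0.03, and the 3 measured ACTB probes lay between -0.32 and 0.02. On the 5 retinoblastoma and photoreceptor marker genes measured on both arrays (CRX, OTX2, ARR3, ELAVL4 and GNGT2) log2 ratios lay between -0.47 and -0.21. ARR3, at -0.21 ± 0.23, lay within its software error. SAG and THRB were well above background in untreated cells only, which puts their log2 ratios at -0.37 or lower and -0.61 or lower. The spots of OTX2 (-0.47) and SAG lay in a corner of the arrays, described below, where ratios were more spread. NRL, NEUROD1, PDE6H and RCVRN were not well above background on either array. The summed signal of this marker list was 449 in untreated cells and 354.9 after siRNA. Markers of other cell types were measured for 12 of 14 genes, with log2 ratios between -0.55 and 0.26, while PECAM1 and RPE65 were not well above background. Their summed signal was 1672 and 1699, with KRT19 alone at 517 and 523. Such cell types should be absent from a single line, so a signal well above background is not by itself proof of the named transcript. How far this holds for the member probes was not tested. The part of the marker differences in the values of the imprinted genes was not tested. In such bulk RNA, fewer cells of a type and less RNA per cell cannot be told apart.

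The probes of the non-coding members MEG3 and H19 and of DLK1 are shown because their place and strand decide what each signal can stand for. Positions are on human genome build hg17, MEG3 and DLK1 lying on chromosome 14 and H19 on chromosome 11, and the sequences are those of the deposited array files, 5′ to 3′. Capitals in the DLK1 pair mark the 24 bases over which the probes are reverse complements of each other, and the other sequences have no capitals.
MEG3 probe 1 (chr14:100365727-100365786, plus strand): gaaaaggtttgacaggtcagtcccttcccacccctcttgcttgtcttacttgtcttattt
MEG3 probe 2 (chr14:100384821-100384880, plus strand): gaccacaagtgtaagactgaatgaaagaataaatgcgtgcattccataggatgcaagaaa
MEG3 probe 3 (chr14:100393296-100393355, plus strand): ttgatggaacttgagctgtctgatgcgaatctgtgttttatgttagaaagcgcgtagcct
MEG3 probe 4 (chr14:100396938-100396997, plus strand): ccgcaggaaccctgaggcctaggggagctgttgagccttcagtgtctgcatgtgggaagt
DLK1 probe (chr14:100270801-100270860, plus strand): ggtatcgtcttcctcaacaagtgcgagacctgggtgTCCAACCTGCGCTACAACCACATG
Opposite-strand probe at DLK1 (chr14:100270837-100270896, minus strand): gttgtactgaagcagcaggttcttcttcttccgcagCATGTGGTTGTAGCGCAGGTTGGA
H19 probe 1 (chr11:1973250-1973309, minus strand): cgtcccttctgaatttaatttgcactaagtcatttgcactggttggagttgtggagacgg
H19 probe 2 (chr11:1973341-1973400, plus strand): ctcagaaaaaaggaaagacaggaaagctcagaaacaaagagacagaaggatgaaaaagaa
H19 probe 3 (chr11:1973698-1973757, plus strand): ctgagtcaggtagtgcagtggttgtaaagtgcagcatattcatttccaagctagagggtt

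None of the 17 member probes was shown to pass 2-fold in either direction. The lower bound of MEG3 probe 3, a log2 value of 0.93, fell short of it but does not exclude a larger ratio, and 3 probes had no ratio. Of the 29396 probes that stood well above background in at least 1 of the samples, 1.27% were at least 2-fold higher and 0.925% at least 2-fold lower in siRNA-treated cells, and 14 of the member probes belonged to these 29396. With 14 probes against such a background, a count of 0 is not a result about the imprinted genes. At the thresholds 1.5 and 0.55 of the series text, 1 member probe passed (MEG3 probe 3, higher), where 4.01% of the 29396 were higher, 1.67% lower and 5.69% past either threshold. Both arrays measured 12 of the 14, and 1 array alone measured the other 2 (MEG3 probe 3 and MEST), which gives a bound. The other 3 (MEG3 probe 2, H19 probe 2 and GRB10 probe 1) were not well above background on either array and have no ratio. The median log2 ratio of the 12 measured probes was -0.04 (range -0.82 to 0.53), beside -0.03 over all 26975 probes measured on both arrays, and their SD was 0.33, as it was over all measured probes. In 5 of the 12 the siRNA-treated array was brighter after scaling, and in 7 the untreated array, beside 12132 and 14843 of all 26975 measured probes. The difference lay within 1 software error in 10 of the 12, the exceptions being GRB10 probe 2 and NDN. The share within 1 software error over all measured probes was not taken, so this count is not a result about the imprinted genes.

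**Figure D1:**
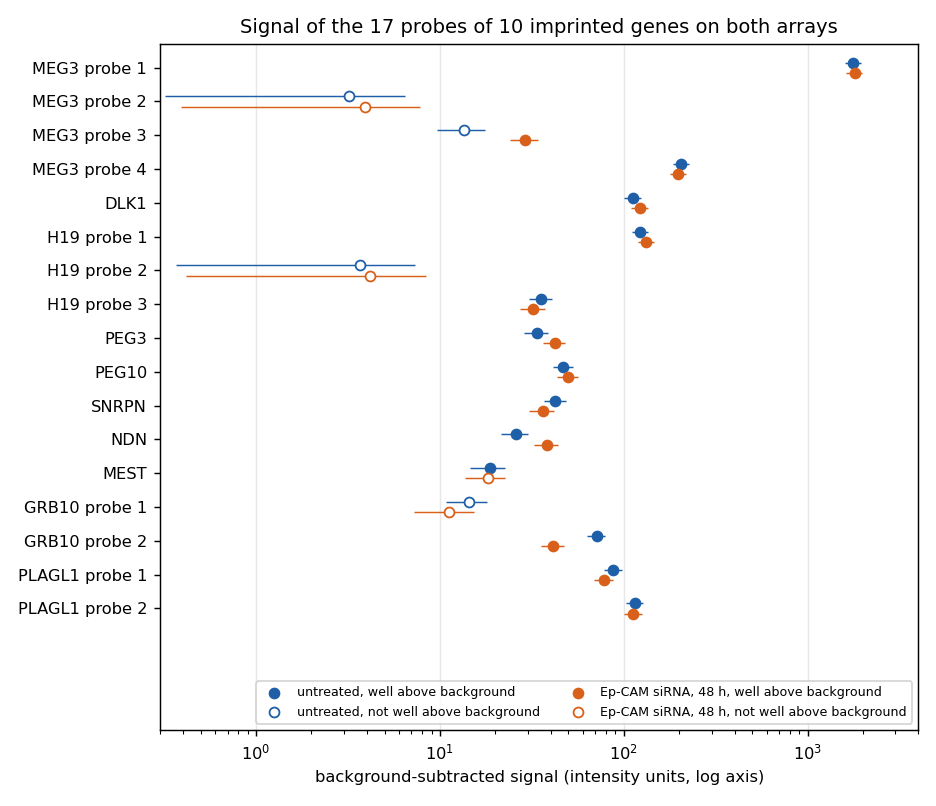
Signal of each member probe (background-subtracted intensity, log axis) on the untreated array (blue) and the array of cells 48 h after Ep-CAM siRNA (orange), with the software error as bars (shortened at the low end for the dimmest points); open points were not well above background. MEG3 probe 1 lay at 1773 and 1796, every other member probe at 205 or less, and GRB10 probe 2 and NDN show the widest gaps among the probes with filled points on both arrays.

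**Figure D2:**
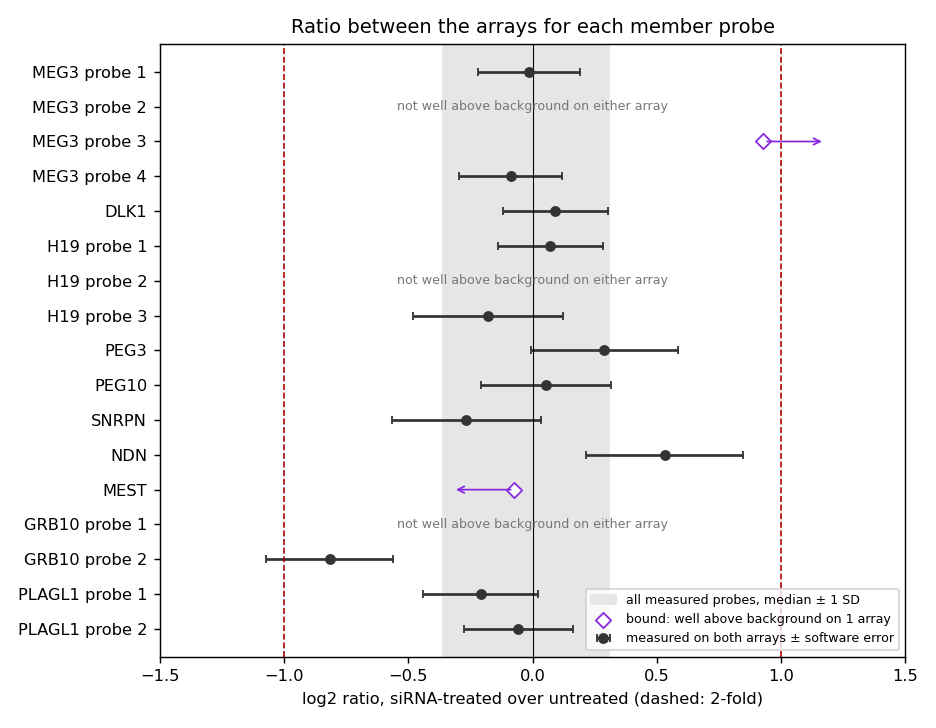
Log2 ratio, siRNA-treated over untreated, for each member probe, with the propagated software error as bars; diamonds with arrows are bounds for probes well above background on 1 array, dashed lines mark 2-fold, and the grey band is the median ± 1 SD of all measured probes. Of the 12 measured probes, GRB10 probe 2 (-0.82) and NDN (0.53) lie outside the band.

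MEG3, a maternally expressed long non-coding RNA known as a growth suppressor, had the brightest member probe. Probe 1 read 1773 ± 177 (software error) in untreated cells and 1796 ± 180 after siRNA, 36.3 and 35.9 times the array medians. Probe 4, at the far end of a stretch of 31.3 kb that the MEG3 probes span, read 205 ± 20.8 and 197 ± 20.1. With the processed signal both probes were therefore near the same value on the 2 arrays, with log2 ratios of -0.02 ± 0.20 and -0.09 ± 0.21. Measured probes within 0.5 log2 units of the brightness of probe 1 had a median log2 ratio of -0.16 (700 probes), and quantile normalization, which evens out such trends between arrays, put probe 1 at 0.22. The normexp background model, which moved the median of all measured probes to -0.20, put probe 1 at -0.65 and probe 4 at -0.46; without the spots dimmer than their local background in that fit, they were at -0.03 and -0.10.

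The remaining MEG3 probes were designed on cDNA clones inside the gene region and gave far dimmer spots. Probe 2 read 3.22 in untreated cells and 3.92 after siRNA, values that the software had put in place of signals too low to use. Probe 3 read 13.6 ± 3.97 in untreated cells, not well above background, and 29.1 ± 5.02 in siRNA-treated cells, where it was. With the processed signal this is at least 1.90-fold higher in siRNA-treated cells, a log2 bound of 0.93. With the untreated signal taken as read, and not raised to the lowest signal well above background, the log2 ratio was 1.07. The size rests on the background correction: the log2 value was 0.32 in the authors' value table of raw brightness and 0.44 with the normexp background model. Before background subtraction the spot of probe 3 read 84.9 and 106, beside a local background of 39.0 and 39.5. The spot of probe 2, too low to use, read 74.3 and 71.6 in the same way, so in untreated cells probe 3 stood little above it. The propagated software error of the log2 ratio of probe 3 was 0.49. The 103 measured spots around it had a median log2 ratio of 0.21, and after subtraction of that local value the bound was 0.72 on the log2 scale. The study lists the clone of probe 3, under the name MEG3, among its upregulated genes. Probe 3 lies 3.58 kb from probe 4, which showed no such difference, so the MEG3 probes disagreed.

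DLK1, a paternally expressed transmembrane protein related to Notch ligands, shares the cluster with MEG3. Its probe, 94.9 kb before MEG3 probe 1, read 112 ± 11.6 in untreated cells and 122 ± 12.7 after siRNA, a log2 ratio of 0.09 ± 0.21. The opposite-strand probe that overlaps it by 24 bases read 156 and 155, a log2 ratio of -0.04 ± 0.21. Both probes at DLK1 thus gave signals well above background, and neither differed by more than its error. The sequence of the opposite-strand probe places it on the minus strand. The array annotation gives it as a 3′ read of a cDNA clone, so that an RNA of this strand exists rests on the orientation of that read. Whether the minus-strand signal comes from an antisense RNA was not tested.

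At the far end of the cluster, DIO3, which encodes a thyroid hormone inactivating deiodinase, read 210 on both arrays (log2 ratio -0.03), and both probes of its antisense partner DIO3OS had log2 ratios of -0.13 and 0.19. Between the DLK1 and DIO3 probes, 828 kb on hg17, the arrays held 16 probes, of which 8 were measured on both arrays, 2 gave a bound and 6 were not well above background. None passed 2-fold, and the 8 measured ones had a median log2 ratio of -0.02 (range -0.13 to 0.43).

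H19, a maternally expressed long non-coding RNA, is read by only 1 probe of its own strand. Across the arrays, 98.8% of 16565 probes ran on the strand that RefSeq (GRCh38.p14) gives for their gene, while among the H19 probes this held for 1 of 3. H19 probe 1, on the strand of H19, read 123 ± 12.7 in untreated cells and 132 ± 13.8 after siRNA, a log2 ratio of 0.07 ± 0.21. Probes 2 and 3 come from 1 cDNA clone that the array annotation itself marks as chimeric, and they run on the opposite strand. Probe 3 read 35.6 ± 4.90 and 32.1 ± 5.02, a log2 ratio of -0.18 ± 0.30, and probe 2 read 3.66 and 4.19, both values put in by the software for spots too low to use. Taken by gene name, the 3 H19 probes therefore do not measure the same RNA, and the value of H19 itself rests on probe 1.

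Along the cluster of H19, IGF2, the paternally expressed growth factor gene that shares its control region with H19, read 54.6 in untreated cells and 57.3 after siRNA (log2 ratio 0.04), and IGF2AS had a log2 ratio of -0.12. INS, the insulin gene at the end of the interval, read 117 and 311, a log2 ratio of 1.37, and was the only one of 47 tested probes of other imprinted genes past 2-fold. Its spot lay in the corner of the arrays at rows 355 to 532 and columns 43 to 85, where ratios were more spread (SD 0.51) than elsewhere (0.29). Of the 84 measured spots around it, 16 were past 2-fold, and their median log2 ratio was 0.47. After subtraction of the local median INS was no longer past 2-fold.

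**Figure D3:**
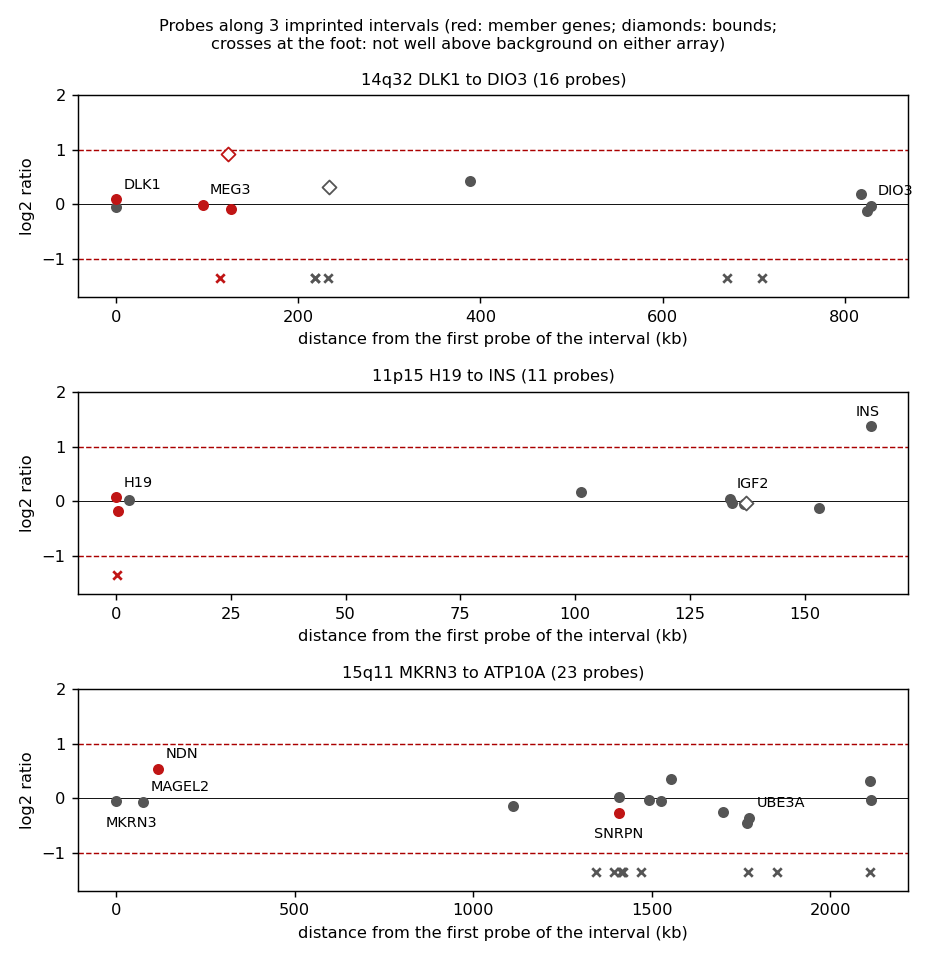
Log2 ratio, siRNA-treated over untreated, of every probe along 3 imprinted intervals, by distance in kb from the first probe; red points are MEG3, DLK1, H19, NDN and SNRPN, grey points other probes, diamonds bounds, crosses probes not well above background on either array, and dashed lines mark 2-fold. INS at the end of the middle panel is the only point past 2-fold among the 50 probes.

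NDN and SNRPN are paternally expressed genes of the Prader-Willi region on chromosome 15. NDN (chr15:21482148-21482207, minus strand) encodes necdin, a growth-restraining protein of the MAGE family. Its probe read 25.8 ± 4.18 in untreated cells and 38.2 ± 5.65 after siRNA. The siRNA-treated array was thus the brighter, 1.45-fold, a log2 ratio of 0.53 ± 0.32, and 3.45% of all measured probes had a ratio as high or higher. The signal was low, and before background subtraction the spot read 103 and 111. In the authors' value table, which holds raw brightness, its log2 ratio was 0.03. The 88 measured spots around it had a median log2 ratio within 0.01 of 0.

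SNRPN (chr15:22771616-22771675, plus strand) encodes a spliceosome protein of neural tissue. Its probe read 42.5 ± 5.72 in untreated cells and 36.1 ± 5.71 after siRNA, a log2 ratio of -0.27 ± 0.30. NDN and SNRPN therefore lay on opposite sides of 0, SNRPN within its error. Of the other genes of the region, MKRN3 and MAGEL2, beside NDN, both had a log2 ratio of -0.06, UBE3A, the maternally expressed ubiquitin ligase gene of Angelman syndrome, had -0.37, and both measured probes of ATP10A had -0.03 and 0.32. SNURF, which shares its transcript with SNRPN, was too dim to be measured. From MKRN3 to ATP10A 14 of 23 probes were measured on both arrays, none past 2-fold, with a median log2 ratio of -0.05 (range -0.45 to 0.53).

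GRB10, an adaptor protein that restrains insulin and IGF receptor signaling, had the lowest measured ratio of the members. Probe 2 (chr7:50432022-50432081, minus strand) read 71.2 ± 7.77 in untreated cells and 41.4 ± 5.74 after siRNA. The untreated array was the brighter, 1.76-fold, a log2 ratio of -0.82 ± 0.25, and 1.83% of all measured probes had a ratio as low or lower. Before background subtraction the spot read 155 and 117, and the 111 measured spots around it had a median log2 ratio of 0.00. Probe 1 (chr7:50431957-50431991), next to it on the same strand, read 14.5 and 11.2, too dim for a ratio, so no other GRB10 probe can be set beside the difference. The size of the difference depended on the background: with the raw brightness of the value table the log2 ratio was -0.42. DDC, the aromatic amino acid decarboxylase gene that lies next to GRB10, read 52.6 and 44.5, a log2 ratio of -0.27.

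**Figure D4:**
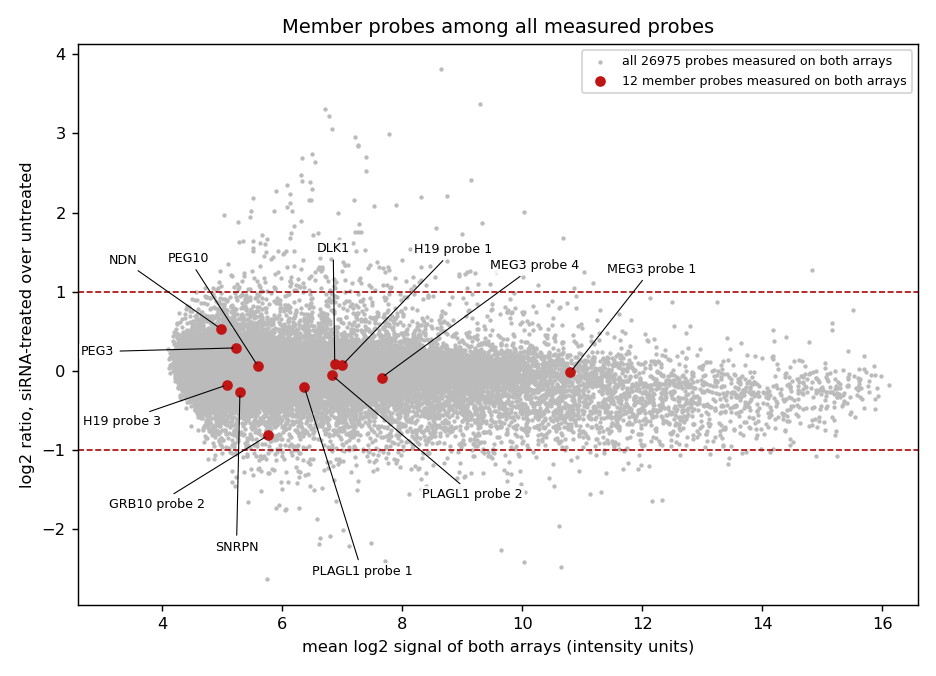
Log2 ratio, siRNA-treated over untreated, against the mean log2 signal of both arrays for all 26975 probes measured on both arrays (grey) and the 12 measured member probes (red, named); dashed lines mark 2-fold. All 12 member probes lie within the 2-fold lines, and 11 of them have low signals at the left, with MEG3 probe 1 alone to the right.

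MEST and PEG10 are paternally expressed genes of chromosome 7. MEST (chr7:129739599-129739658, plus strand), which encodes a protein of the hydrolase fold family, read 18.7 ± 4.00 in untreated cells and 18.2 ± 4.45, not well above background, in siRNA-treated cells. The rule for bounds gives at least 1.05-fold lower in siRNA-treated cells, but that is only the ratio of both readings and lies far inside their error, so no direction is read from it. PEG10 (chr7:93943215-93943274, plus strand), a gene derived from a retrotransposon, read 46.9 ± 5.91 and 49.9 ± 6.51, a log2 ratio of 0.05 ± 0.26. The spots around PEG10 had a median log2 ratio of -0.32 (97 spots), the largest local shift around any member, and after its subtraction PEG10 stood at 0.37. SGCE, the neighbour of PEG10, had a log2 ratio of 0.04, and of the neighbours of MEST, both probes of CPA4 had -0.15 and 0.01, KLF14 had -0.08, and COPG2 was not well above background. Over the whole interval from CPA4 to KLF14, 10 of 12 probes were measured on both arrays, none past 2-fold, with a median log2 ratio of -0.03 and a range from -0.51 (CPA1) to 0.39 (1 of 3 TSGA14 probes), and CPA5 had 0.33.

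PEG3 and PLAGL1 are paternally expressed genes for zinc finger proteins, of chromosomes 19 and 6. PEG3 (chr19:62016197-62016256, minus strand) read 33.7 ± 5.05 in untreated cells and 42.1 ± 5.93 after siRNA, a log2 ratio of 0.29 ± 0.30. ZIM2, which overlaps it, had a log2 ratio of 0.03. PLAGL1, known to regulate a network of other imprinted genes, had 2 measured probes, both on the minus strand. Probe 1 (chr6:144303752-144303811) read 87.8 ± 9.63 and 77.7 ± 9.15, and probe 2 (chr6:144304523-144304582) read 115 ± 12.1 and 113 ± 12.3. Their log2 ratios were -0.21 ± 0.23 and -0.06 ± 0.22, both within their error.

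**Figure D5:**
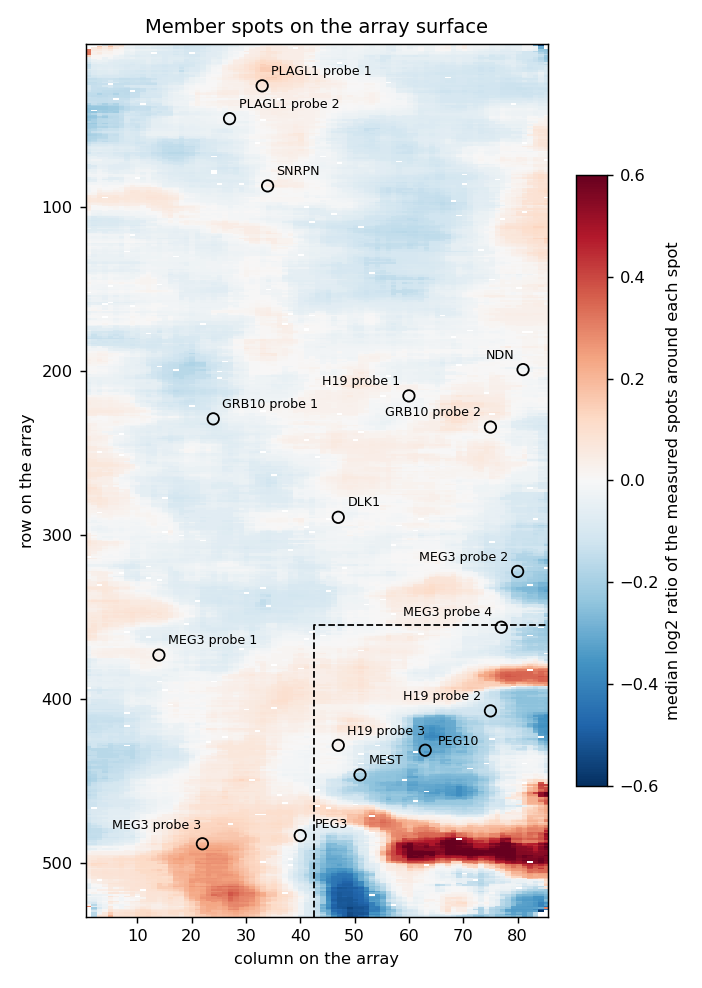
Place of the 17 member spots (circles) by row and column of the array; the color gives the median log2 ratio, siRNA-treated over untreated, of the measured spots within 6 rows and 6 columns of each spot, limited to ± 0.6, and the dashed line bounds the corner with wider spread. Of the member spots 5 lie in the corner (MEG3 probe 4, H19 probes 2 and 3, PEG10 and MEST), while GRB10 probe 2 and NDN lie where the local median is near 0.

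The other 61 imprinted genes listed had 72 probes for 51 genes, of which 44 were measured on both arrays. Their median log2 ratio was -0.03, with 19 above 0 and 25 below, and 2.13% of the 47 probes tested passed 2-fold, against 2.19% of all probes tested.

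Of the genes listed as setting up or maintaining imprints, all 8 measured probes were below 0, with a median log2 ratio of -0.56 and a range from -1.30 to -0.08, and 1 of the 9 tested probes passed 2-fold. Over all probes, 14843 of the 26975 measured were below 0 and 2.19% of those tested passed 2-fold. Measured probes of like brightness (within 0.5 log2 units) had median log2 ratios between -0.06 and -0.01. The probe past 2-fold was 1 of DNMT3A, a DNA methyltransferase that sets up methylation in germ cells. It read 1396 in untreated cells and 581 after siRNA, a log2 ratio of -1.30. The second DNMT3A probe had -0.15. The array annotation gives the first for transcript variant 1 and the second for transcript variant 4, and whether they read the same RNA was not tested. DNMT1, the maintenance methyltransferase, had a log2 ratio of -0.64, and UHRF1, which recruits it to newly copied DNA, -0.58. CTCF, the insulator protein that binds the control region between H19 and IGF2, had -0.49 and -0.57, TRIM28, a corepressor that protects imprints, had -0.56, and UHRF2 had -0.08. The spots of DNMT1, TRIM28 and the second DNMT3A probe lay in the corner of wider spread. In raw brightness the DNMT1 spot read 326 in untreated cells and 301 after siRNA, beside processed signals of 349 and 229. The size of its ratio thus rests on the processing, and 14 of the 58 measured spots around it were past 2-fold. DNMT3B was well above background in untreated cells only, and DNMT3L, CTCFL and DPPA3 on neither array. No difference between these genes and the imprinted genes was tested.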

How the data were processed

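Both arrays were one-color Agilent whole-genome arrays, 1 per condition. The authors made the deposited spot intensity values with Agilent Feature Extraction, whose version is 9.5.3.1 per the file headers and another per the labels. The processed intensity is background-subtracted and corrected for trends across the array, and is not scaled to the other array. The deposited value table of the series held the raw median intensity of each spot and served as an alternative.

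After removal of control and outlier spots, signals were divided by the 50th percentile of the array over transcript probes, raised to 0.01 where lower, and converted to log2 (Python 3.11.15, pandas 2.3.3). The percentile is that of the series text, and 2-fold is 1 linear reading of the thresholds of the study, which words them in several ways and adds a p-value criterion that was not applied here. A probe not well above background on 1 array was set to the higher of its own signal and the lowest signal well above background there, 14.9 for the untreated and 17.5 for the siRNA-treated array, and gives a bound. One not well above background on either array has no ratio. The error of a ratio was propagated from the software errors. Well-above-background spots made 70.4% and 68.0% of transcript spots, and the number of arrays limits the precision. The calls were tested on simulated data, with changes larger than 2-fold planted in brighter probes only. That simulation held no bounds and no planted changes in dim probes or below 2-fold, so it says nothing about those.

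The members and gene lists were chosen with earlier results of these data known. All probes of the members were named, with other imprinted genes past 2-fold or measured in a cluster with a member and measured genes that set up or maintain imprints. Cluster intervals, 3 older symbols, local medians and brightness-matched medians were added after the values were seen, and CPA1, CPA5 and TSGA14 were named then. All 10 member symbols matched current RefSeq symbols. RTL1, MEG8, KCNQ1OT1, IPW, PAR1, PWCR1, MESTIT1, HYMAI, GNASAS, ZDBF2, ZFP57 and RBP3 were not analysed here. Alternatives were other scalings, normexp background correction (limma 3.58.1, offset 50), the value table, other filters on dim probes, the thresholds 1.5 and 0.55 of the series text, 1 value per gene and the arrays without the corner.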

Additional observations from a re-analysis of the deposited data

How the results depend on the processing

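No paired analysis was possible because each condition has 1 array. The count of 0 member probes past 2-fold became 1 (MEG3 probe 3) without the filter on dim probes and 1 with the thresholds 1.5 and 0.55, at which 5.69% of all tested probes passed, and stayed 0 in the other settings. The median log2 ratio of the measured member probes moved from -0.04 to -0.22 with normexp, where the median of all measured probes also moved, to -0.20, and to -0.02 with a normexp fit without spots dimmer than their local background, an alternative chosen after seeing the data. The count of 1 other imprinted probe past 2-fold (INS) was 0 with normexp, 0 with the authors' value table, 0 without the corner, 0 after subtraction of the local median (also chosen after seeing the data) and 4 without the filter on dim probes. Of 133 single-probe ratios under alternatives, 112 moved by less than the technical SD of 0.14 and 21 by more. The moves came from normexp (10), normexp without the dimmer spots (5), the value table (3), the local median (2) and quantile normalization (1). The other scalings and the arrays without the corner shift all probes by 1 constant below that SD. The count of 112 is therefore no measure of stability. Over all settings that give a ratio, GRB10 probe 2 stayed below 0 (-0.82 to -0.38) and NDN above 0 (0.03 to 0.57). For MEG3 probe 3 the lower bound lay between 0.32 and 0.96, and its ratio without the filter on dim probes was 1.07. MEG3 probe 4 lay between -0.46 and -0.04 and MEG3 probe 1 between -0.65 and 0.22. Most member signals were low, and for the 3 member probes too dim on both arrays no change could be seen.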
